A study of Mus musculus with 4 samples.

Results

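Cadherins are calcium-dependent adhesion proteins. The 73 genes described here are members of that superfamily, though not all of them, measured in embryonic mouse hearts lacking the Hippo pathway scaffold Salvador. They were chosen by gene symbol, with earlier results of these data known. The symbols cover the classical and other numbered cadherins (Cdh), the desmosomal cadherins (Dsc and Dsg), the protocadherins (Pcdh), Fat and Dachsous (Dchs), and the Celsr cadherins. The 73 were set among the 16675 genes that had a probe with a single gene symbol. Hearts were taken on embryonic day 9.5 from mice labelled as a C57bl/6 x129 hybrid. Pooled total RNA was amplified, coupled to Cy5 and hybridised to 4 single-colour oligonucleotide arrays, 2 with Salv CKO pools (a conditional knockout of Salvador, gene Sav1) and 2 with Control pools labelled wild-type. The labels name neither the Cre line behind the deletion nor how many hearts went into a pool. The purpose was to find genes under Hippo control during cardiogenesis. The pools are called biological replicates with no litters named, so p-values measure the spread between these pools.

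Classical cadherins bind partners of their own kind across adherens junctions and hold catenins on their cytoplasmic tails; desmosomal cadherins do the same for plakoglobin and plakophilins at desmosomes. In the early heart N-cadherin (Cdh2) joins cardiomyocytes, VE-cadherin (Cdh5) joins endothelial cells, and E-cadherin (Cdh1) belongs to epithelia. Dachsous is the ligand of Fat cadherins, and in Drosophila that pair acts upstream of the Hippo kinases and in planar cell polarity, which also uses the Celsr proteins. Protocadherins are a large branch best known from the nervous system, and the alpha, beta and gamma genes lie next to each other in clusters, where alpha and gamma transcripts share constant 3′ exons.

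All values are log2 probe intensities after quantile normalisation, and a difference is Salv CKO minus Control with its limma standard error and n = 2 pools per group. A probe was above background at a log2 intensity over 4. Median deposited intensities were 71.1 and 76.1 on the Salv CKO arrays and 77.5 and 101 on the Control arrays. The arrays of a group correlated at r = 0.947 in Salv CKO and 0.946 in Control, and at 0.937 to 0.942 across groups, over all probes. Sav1 was at 9.19 and 9.13 in Salv CKO and at 9.56 and 9.30 in Control (difference -0.27 ± 0.13, limma adjusted p = 0.266), and the platform table does not say whether its probe lies in the deleted part. Heart muscle was present by its markers: all 8 that were measured, such as Actc1 and Myh6, were above background on all 4 arrays. Of the 8, 3 fell (Myh6, Tnnc1 and Tnni1). Also above background on all 4 arrays were 7 of 8 neural tube, 6 of 7 neural crest and 5 of 6 somite markers. The markers thus do not show that the pools held heart alone.

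In the Salv CKO pools 5 classical or Fat-type cadherins fell and 1 protocadherin probe rose. Cdh20 fell to 0.217 of its Control level, Cdh5 to 0.586, Cdh3 (P-cadherin) to 0.660, Dchs1 to 0.667 and Fat1 to 0.737, while the probe of the protocadherin alpha cluster named Pcdha1 was 3.98-fold higher. So 1 of 73 members was called higher and 5 lower at a limma adjusted p under 0.05. Over all genes tested 4.92% were called higher and 5.70% lower, against 1.37% and 6.85% of the members, shares too close to the background to be a result about the family. The groups did not overlap for 35 members (47.9%, against 54.2% of all genes). In 16 of these both Salv CKO pools were the higher (25.2% of all genes) and in 19 the lower (29.0% of all genes). An unadjusted p under 0.05 was reached by 19 members, against 26.7% of all genes. The median difference was 0.00 over the 73 members and -0.04 over all genes.

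Each of the 6 called members kept its sign in all 15 alternatives and was called in 7 (Pcdha1) or 8 (the other five) of them. Many of these settings could not change the sign. The dim-gene filters, the fit without a trend and the replicate block leave a difference as it is. Because the groups of all 6 lay apart, leaving out an array could not reverse it either. No gene on the arrays passed the limma test with any 1 of the 4 arrays left out, or when the variance was fitted without a trend on intensity. With an array left out, between 10 and 17 members had an unadjusted p under 0.05, and the differences of the 6 stayed within the ranges given beside them. For a single member an exact permutation test of 2 against 2 pools can reach no p lower than 0.333, and each call therefore draws on variance estimates pooled over genes by limma.

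Of the 73 members, 47 were above background on all 4 arrays, 17 on some arrays and 9 on none. The plot of differences by subfamily holds the 47. Over these the differences ran from -2.21 (Cdh20) to 1.99 (Pcdha1) with a median of -0.10. The widest differences of all, -3.14 for Pcdhb16 and 3.52 for Dsg3, belonged to members at or near background and were not called.

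**Figure D1:**
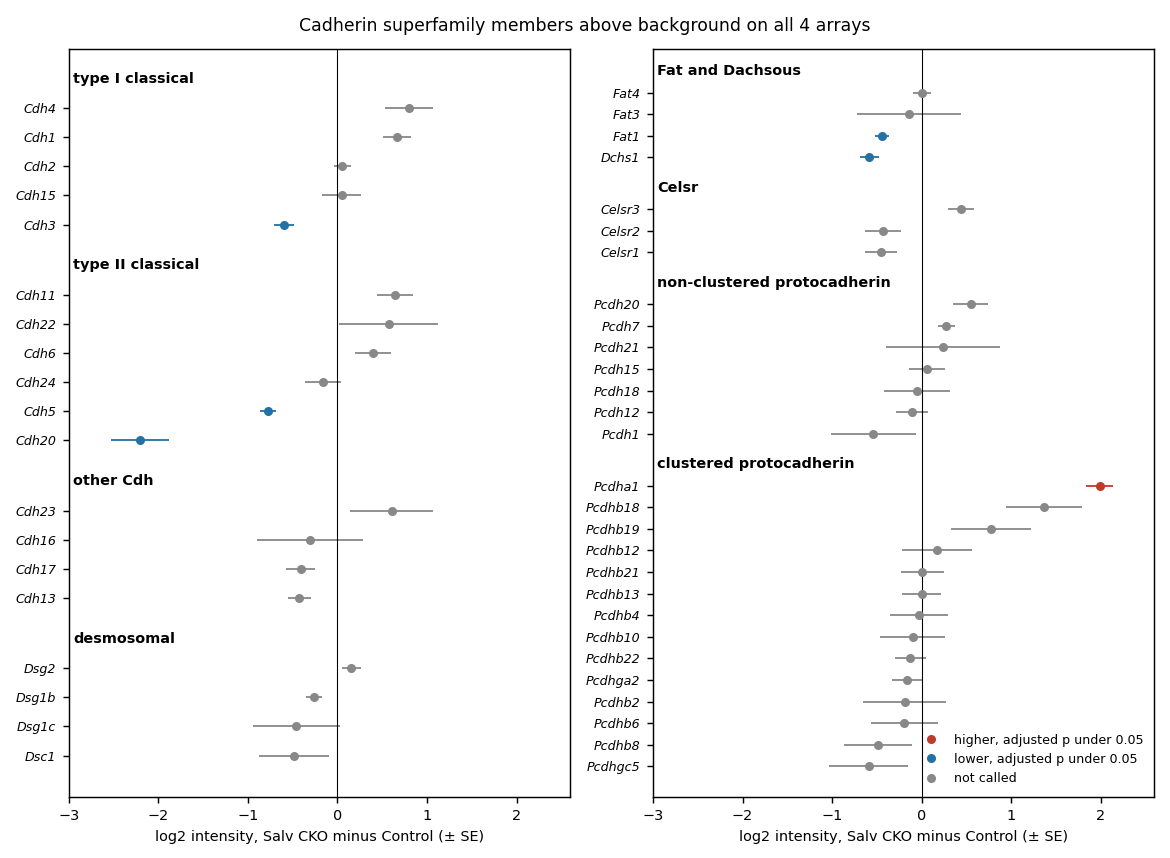
Differences in log2 intensity (Salv CKO minus Control, x axis, with the limma standard error) of the 47 members above background on all 4 arrays, grouped by subfamily. The 5 members in blue fell, between -2.21 for Cdh20 and -0.44 for Fat1, and Pcdha1 in red rose by 1.99.

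**Figure D2:**
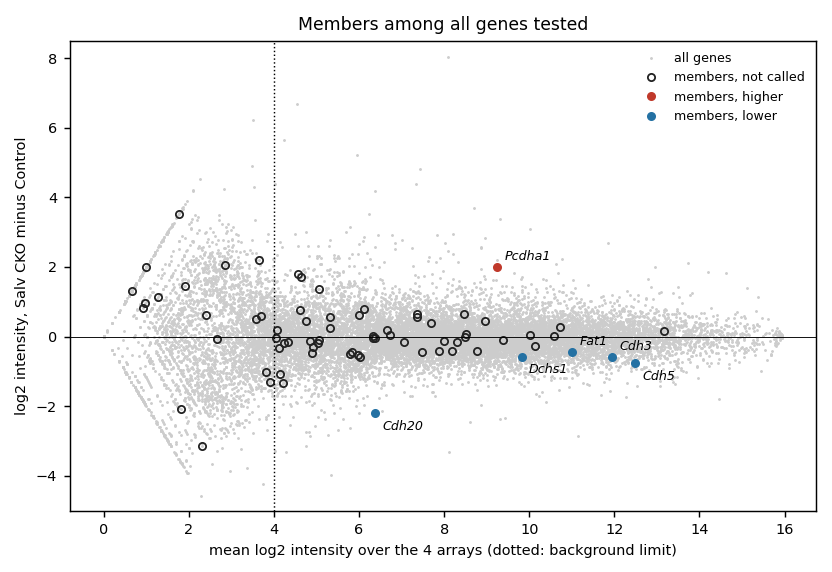
Difference (Salv CKO minus Control, log2) against mean log2 intensity over the 4 arrays for 16675 genes in grey and the 73 members as circles, with the background limit of 4 dotted. The brightest member, Dsg2, has a mean of 13.24 in Salv CKO and 13.09 in Control, short of the brightest genes. Members left of the dotted line scatter most.

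Type I classical cadherins form the main junctions of epithelia, muscle and neural tissue. Of 5, Cdh3 fell and the other 4 were not called, where 5.70% of all genes fell. Cdh3 stood at 11.72 and 11.56 in the Salv CKO pools, against 12.37 and 12.12 in the Control pools. The Control pools were the higher ones without overlap, and the difference was -0.60 ± 0.11 (limma adjusted p = 0.0399; -0.72 to -0.48 with 1 array left out). Its second probe read 6.31 and 6.67 in Salv CKO against 7.86 and 7.51 in Control, a difference of -1.19 ± 0.23 that also separated the groups. Tested among all probes of the arrays rather than among genes, the probes of Cdh3 had limma adjusted p = 0.0574 and 0.0597, just above the threshold of 0.05.

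Cdh1, the epithelial cadherin and the immediate neighbour of Cdh3 among the protein-coding genes of the RefSeq annotation, had the opposite sign. It was at 8.64 and 8.95 in Salv CKO and at 8.19 and 8.08 in Control. Its difference of 0.66 ± 0.16 separated the pools but was not called (limma adjusted p = 0.0657); it was called when only genes above background on at least 2 or on all 4 arrays were tested, and with an offset of 50. Whether the differences of Cdh1 and Cdh3 themselves differ was not tested. Of 7 measured endoderm and epithelial markers 3 rose (Afp, Cldn6 and Foxa1) and 0 fell. Their summed intensity was 11494 and 11093 in Salv CKO against 7580 and 6774 in Control, and Spint2 was at background on all arrays. Krt8, a keratin of simple epithelia, did not go with them (-0.42 ± 0.10). The part of these cells in the value of Cdh1 was not tested. In pooled whole hearts fewer cells of a type and less RNA per cell cannot be told apart.

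Cdh2, the cadherin of cardiomyocyte junctions, was at 9.98 and 10.08 in Salv CKO and at 10.02 and 9.94 in Control. The pools overlapped, and the difference of 0.05 ± 0.09 had a 95% interval from -0.18 to 0.29. Its other probes gave 0.20 ± 0.12 and -0.69 ± 0.21, so the 3 probes disagreed in sign, and none was called. Heart muscle markers had a summed intensity of 274512 and 277237 in Salv CKO against 318754 and 348918 in Control. Very bright probes make up much of that sum, such as Actc1 at 15.95 on both Salv CKO arrays and 15.84 and 15.95 in Control. Whether such probes were saturated was not tested, so the sums are a poor measure of muscle content. Cdh4 (R-cadherin, of retina, brain and kidney) was at 6.45 and 6.58 in Salv CKO and 5.84 and 5.60 in Control, apart but not called (0.80 ± 0.27, limma adjusted p = 0.143). Cdh15, the M-cadherin of skeletal muscle precursors, gave 0.05 ± 0.22.

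Type II classical cadherins act in vessels, mesenchyme and the nervous system. Of 11, Cdh20 and Cdh5 fell and 9 were not called, where 5.70% of all genes fell. Cdh20, described in the developing nervous system, was at 4.94 and 5.63 in the Salv CKO pools and at 7.55 and 7.42 in the Control pools. Both Salv CKO pools lay far below both Control pools and near the background limit. The difference was -2.21 ± 0.32 (limma adjusted p = 0.0216; -2.55 to -1.86 with 1 array left out). The second probe of Cdh20 was dim, at 4.64 and 3.88 in Salv CKO and at 5.11 on both Control arrays, and gave -0.85 ± 0.48. With the mean of the probes the gene's difference was -1.53 and no longer called.

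VE-cadherin, Cdh5, was at 12.19 and 12.01 in Salv CKO and at 12.91 and 12.84 in Control. Its difference was -0.77 ± 0.09 (limma adjusted p = 0.0135; -0.86 to -0.68 with 1 array left out), and the groups lay apart. Of 7 other endothelial and endocardial markers 4 fell (Eng, Pecam1, Plvap and Tie1), 0 rose, and Kdr, Nfatc1 and Tek were not called; the differences of the 7 ran from -1.08 to -0.50. Their summed intensity was 8893 and 9026 in Salv CKO and 16325 and 15759 in Control, with none at background. The share of endothelial cells in the fall of Cdh5 was not tested. Pcdh12, a protocadherin also known as VE-cadherin-2, was at 9.23 and 9.44 in Salv CKO and 9.22 and 9.66 in Control (-0.11 ± 0.18, 95% interval -0.58 to 0.36), and its second probe gave -0.02 ± 0.16.

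Cdh11, a cadherin of mesenchyme and neural crest, was at 7.87 and 7.51 in Salv CKO and at 7.10 and 6.99 in Control. Neither of its probes was called, but they had the same sign and separated the pools (0.64 ± 0.21, limma adjusted p = 0.128, and 1.15 ± 0.31). Cdh6, a cadherin of kidney and neural crest, was likewise apart without a call (0.40 ± 0.20). Of 7 neural crest markers 4 rose (Crabp1, Pax3, Sox10 and Tcfap2b) and 0 fell, with a summed intensity of 49275 and 49288 in Salv CKO against 14061 and 13735 in Control; Foxd3 was at background on all arrays. Most of that sum was Crabp1, at 15.53 on both Salv CKO arrays and at a mean of 13.71 in Control, and Sox10 rose by 2.57 ± 0.11. Their part in the values of Cdh11 and Cdh6 was not tested.

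Cdh10, a brain cadherin, was at 5.48 and 5.51 in Salv CKO and at 3.24 and 4.34 in Control, where 1 of 2 arrays was above background. The difference of 1.70 ± 0.54 was not called (limma adjusted p = 0.123), and its other 2 probes gave -1.78 and 0.57 with arrays at background. Cdh7 went the other way, at 2.65 and 4.44 in Salv CKO and 4.56 and 5.21 in Control (-1.34 ± 0.76, not called), with 0.32 ± 0.67 on its second probe. The symbol Cdh7 is also an old name of Cdh20 in the RefSeq table, so a probe under that name may read either gene. Cdh24 gave -0.17 ± 0.20 without a call. Cdh8 (-0.34 ± 0.57), Cdh22 (0.57 ± 0.55) and the dim Cdh9 and Cdh18 had overlapping groups or arrays at background.

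Of the 5 other numbered cadherins none was called (1 at an unadjusted limma p under 0.05, against 26.7% of all genes). Cdh13, T-cadherin, which is anchored by a lipid and has no cytoplasmic tail, was at 8.67 and 8.46 in Salv CKO and 8.96 and 9.01 in Control. Its probes gave -0.43 ± 0.13 (limma adjusted p = 0.113) and -0.58 ± 0.24, and the groups lay apart on each; it was called lower with median centring and with the values as deposited. Cdh17, the liver-intestine cadherin, gave -0.41 ± 0.16 with groups apart and no call (limma adjusted p = 0.192). Cdh16, a kidney cadherin (-0.31 ± 0.59), and Cdh23, of hair-cell tip links (0.60 ± 0.46), had overlapping groups. Cdh26 was near background on all arrays (-0.03 ± 0.50).

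**Figure D3:**
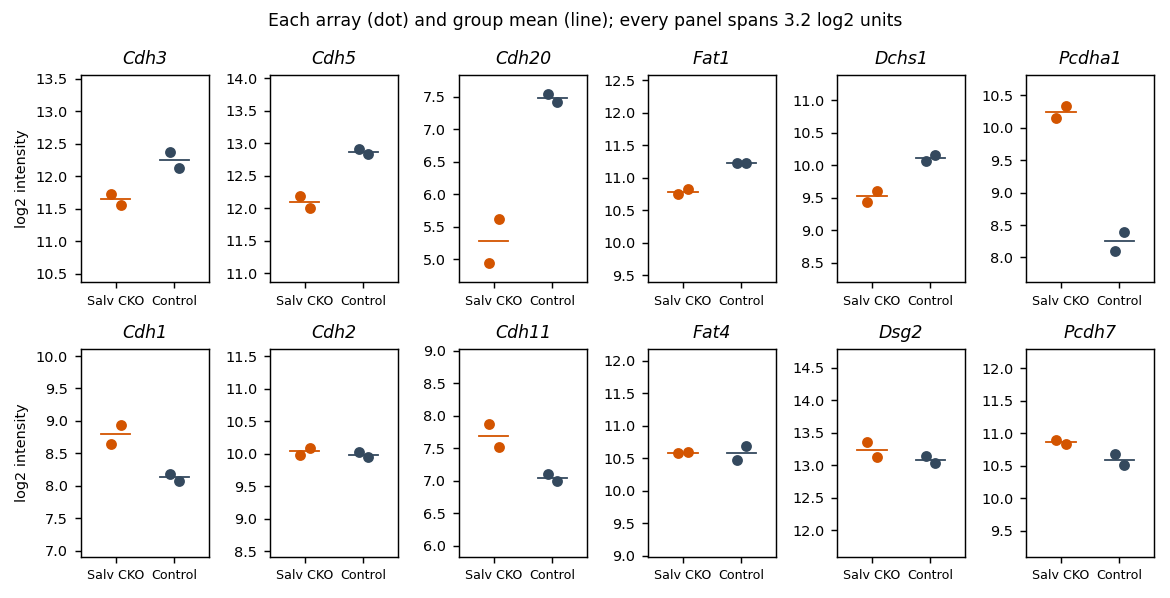
Log2 intensity on each array for 12 members, with the Salv CKO pools left of the Control pools, dots for arrays and lines for means; every panel spans the same range. In the upper row the groups lie apart for all 6 called members. In the lower row, of members not called, they lie apart for Cdh1, Cdh11 and Pcdh7 and overlap for Cdh2, Fat4 and Dsg2. The groups lay apart for 54.2% of all genes, so separation alone does not mark a call.

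The catenins and other plaque proteins of the adherens junction, 18 genes, gave 0 that rose and 2 that fell, with a median difference of -0.13. Over all genes 4.92% rose and 5.70% fell, with a median of -0.04, and no list was tested as a set. The 2 were p120-catenin (Ctnnd1), which binds and stabilises classical cadherins, at -0.55 ± 0.07 (limma adjusted p = 0.0152), and the nectin Pvrl2, at -0.59 ± 0.08 (limma adjusted p = 0.0173). The second probe of Pvrl2 gave 0.09 ± 0.16. Beta-catenin (Ctnnb1) gave 0.21 ± 0.12, and alpha-T-catenin (Ctnna3), of heart muscle junctions, gave -1.18 ± 0.32 without a call (limma adjusted p = 0.0900).

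No desmosomal cadherin of the 9 was called. Dsg1b and Dsg3 had an unadjusted limma p under 0.05, as did 26.7% of all genes. Dsg2, the desmoglein of heart muscle and simple epithelia, was at 13.36 and 13.13 in Salv CKO and 13.14 and 13.03 in Control on its brightest probe (0.16 ± 0.10, 95% interval -0.11 to 0.42). On its second probe it was at 10.74 and 10.34 in Salv CKO against 9.59 and 9.39 in Control. That difference of 1.05 ± 0.17 passed the test among all 29922 probes (limma adjusted p = 0.0378). With quantile normalisation the probes of Dsg2 thus differed in size though not in sign. The brightest probe changed sign with other scalings, at -0.05 with median centring and -0.32 as deposited. Dsc2, its usual partner in heart, was above background on 1 of 4 arrays and has no measured difference. Dsg1b, a desmoglein of skin, was at 10.02 and 9.98 in Salv CKO and 10.21 and 10.32 in Control (-0.26 ± 0.09, limma adjusted p = 0.147). Its 2 further probes gave -0.14 ± 0.23 and -0.15 ± 0.65. Dsg1a, Dsg1b and Dsg1c are near-identical copies, and the 3 genes cannot be told apart with certainty. Dsg1c gave -0.46 ± 0.49, and Dsg1a was at background throughout. Dsc1 and Dsc3, desmocollins of stratified epithelia, gave -0.49 ± 0.39 and 0.44 ± 0.68. Dsg4, of hair, was at 2.35 and 4.18 in Salv CKO and 4.88 and 4.25 in Control (-1.30 ± 0.79, not called), and Dsg3, of stratified epithelia, was above background on no array.

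On the cytoplasmic side of the desmosome 0 of 9 genes rose and 2 fell, with a median of -0.44. Over all genes 4.92% rose and 5.70% fell. Plakoglobin (Jup), which links desmosomal cadherins to desmoplakin, was at 9.92 and 9.79 in Salv CKO and 10.75 and 10.91 in Control (-0.98 ± 0.10, limma adjusted p = 0.0117). Plakophilin 2 (Pkp2), the plakophilin of heart muscle, gave -0.44 ± 0.06 (limma adjusted p = 0.0217), with -0.17 ± 0.09 on its second probe. Desmoplakin (Dsp) gave -0.23 ± 0.10 and was not called.

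**Figure D4:**
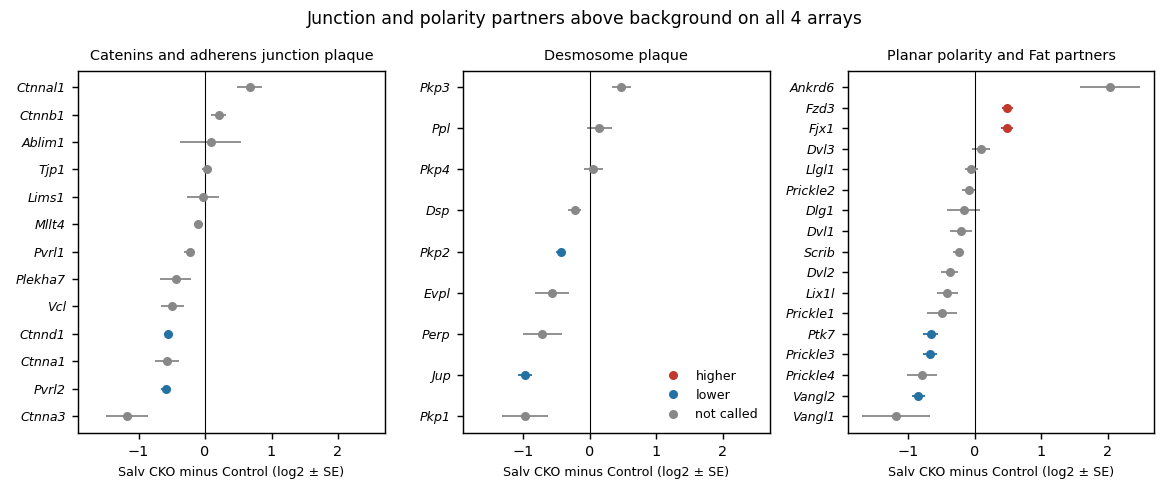
Differences in log2 intensity (Salv CKO minus Control, with the limma standard error) of adherens junction, desmosome and planar polarity partners above background on all 4 arrays. Ctnnd1, Pvrl2, Jup, Pkp2, Vangl2, Prickle3 and Ptk7 fell. Fjx1 and Fzd3 were called higher with quantile normalisation and 75th percentile scaling, though not with median centring or as deposited.

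Fat and Dachsous were represented by 4 genes, of which Dchs1 and Fat1 fell, where 5.70% of all genes fell. Dchs2 and Fat2 are not analysed here. Dchs1, the ligand, was at 9.44 and 9.61 in Salv CKO and at 10.06 and 10.15 in Control. Its difference was -0.58 ± 0.11 (limma adjusted p = 0.0352; -0.67 to -0.50 with 1 array left out). Fat1, a giant cadherin of cell edges and protrusions, was at 10.75 and 10.83 in Salv CKO and at 11.22 and 11.23 in Control (-0.44 ± 0.08, limma adjusted p = 0.0313; -0.48 to -0.40 with 1 array left out). Neither gene had overlapping groups, and each had a single probe. Fat4, the receptor that binds Dchs1 in mammals, was at 10.58 and 10.59 in Salv CKO and at 10.48 and 10.69 in Control, a difference of 0.00 ± 0.10 with a 95% interval from -0.26 to 0.26. That interval does not reach the difference of Dchs1, but the difference between the genes was not tested. Fat3 gave -0.14 ± 0.58 near background.

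The upstream sequences of the falling members are shown because the outputs of Hippo signalling act through Tead factors, whose core motif is GGAATG. Among the 6 called members, RefSeq start-site windows are shown for Cdh20 and Fat1 only. The 250 bases before each annotated start (GRCm38.p6) are given 5′ to 3′ on the gene's strand, with each copy of the motif, on either strand, in capitals.
Cdh20, chr1:104768270-104768519, plus strand: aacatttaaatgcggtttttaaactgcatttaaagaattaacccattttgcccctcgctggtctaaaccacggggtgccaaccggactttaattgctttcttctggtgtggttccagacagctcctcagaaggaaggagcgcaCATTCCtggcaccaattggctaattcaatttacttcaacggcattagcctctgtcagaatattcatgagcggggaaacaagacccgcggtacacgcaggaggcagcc
Fat1, chr8:44949958-44950207, plus strand: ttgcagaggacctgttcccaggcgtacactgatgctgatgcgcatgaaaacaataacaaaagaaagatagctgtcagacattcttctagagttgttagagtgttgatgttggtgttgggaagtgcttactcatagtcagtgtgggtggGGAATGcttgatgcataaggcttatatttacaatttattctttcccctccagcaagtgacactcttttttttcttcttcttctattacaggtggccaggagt
Each window held 1 copy, on the opposite strand in Cdh20, with its first base at position -107 from the start, and on the gene's own strand in Fat1, with its first base at -102. Of the 26 members whose windows were searched 4 held the motif (15.4%), Cdh9 and Cdh10 among them. Of all 32851 windows 12.6% held it. The first share counts genes and the second counts windows, so they cannot be compared directly. The letters describe these windows only, and no binding was measured.

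Among genes that act with Fat, Dachsous and Celsr in planar polarity, 18 in number, 2 rose and 3 fell (median -0.22). The shares over all genes were 4.92% and 5.70%. Vangl2, a core polarity membrane protein, was at 11.34 and 11.40 in Salv CKO and at 12.11 and 12.33 in Control (-0.85 ± 0.10, limma adjusted p = 0.0139). Prickle3 fell by 0.67 and the polarity receptor Ptk7 by 0.66 on the log2 scale. Fjx1, the four-jointed kinase that in Drosophila phosphorylates Fat and Dachsous, was at 10.91 and 10.76 in Salv CKO and 10.33 and 10.37 in Control (0.49 ± 0.09, limma adjusted p = 0.0366). Its second probe had the same sign (0.78 ± 0.18). The receptor Fzd3 rose by 0.49 ± 0.09 (limma adjusted p = 0.0334). With 75th percentile scaling Fjx1 and Fzd3 were still called higher (0.42 and 0.44). With the values as deposited their differences were 0.01 and 0.03 and no longer called, where the median over genes above background was itself -0.44. With median centring Fjx1 and Fzd3 gave 0.28 and 0.30, also without a call. Ankrd6 (Diversin), a cytoplasmic polarity protein, was at 7.01 and 6.80 in Salv CKO and 5.43 and 4.31 in Control (2.04 ± 0.46, limma adjusted p = 0.0575). It was not called with quantile normalisation but was called higher with median centring, with 75th percentile scaling and as deposited. Ankrd6 has 3 probes, and these values come from the brightest alone.

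No Celsr gene was called (1 of 3 at an unadjusted limma p under 0.05, against 26.7% of all genes). The groups lay apart for all 3, as they did for 54.2% of all genes. Celsr1, of epithelial planar polarity, was at 7.15 and 7.34 in Salv CKO and 7.77 and 7.62 in Control (-0.46 ± 0.18, limma adjusted p = 0.193). Celsr2 gave -0.43 ± 0.20 on the probe used and 0.20 ± 0.29 on the other, and Celsr3, known from axon tracts, 0.44 ± 0.14 and -0.21 ± 0.15. The probes of Celsr2 and of Celsr3 thus disagreed in sign.

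None of the 12 non-clustered protocadherins was called, and 3 had an unadjusted limma p under 0.05, against 26.7% of all genes. Pcdh8, which in the mouse embryo is known from paraxial mesoderm, was at 4.34 and 5.16 in Salv CKO and was not above background on either Control array (2.76 and 2.35). It was thus at least 1.68-fold higher in Salv CKO, with a limma adjusted p of 0.0916. Of 6 somite markers 3 rose (Tcf15, Meox1 and Uncx) and 0 fell, with a summed intensity of 3589 and 3557 in Salv CKO and 540 and 475 in Control, most of it Tcf15; Myf5 was at background on all arrays. Their part in the value of Pcdh8 was not tested. Pcdh19, a protocadherin of brain, was at 4.74 and 6.16 in Salv CKO and at 3.08 and 4.25 in Control, above background on 1 of the 2 Control arrays (1.78 ± 0.72, limma adjusted p = 0.200).

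Pcdh7, also called BH-protocadherin for brain and heart, was at 10.90 and 10.84 in Salv CKO and 10.68 and 10.51 in Control (0.28 ± 0.09, limma adjusted p = 0.140). Pcdh20 gave 0.55 ± 0.19 with groups apart and no call (limma adjusted p = 0.159). Pcdh15, a partner of Cdh23 in hair cells, gave 0.06 ± 0.20, Pcdh18 gave -0.05 ± 0.37, Pcdh1 gave -0.54 ± 0.47, and Pcdh21, named Cdhr1 in RefSeq, gave 0.24 ± 0.64. Pcdh9 was above background on 1 of 4 arrays, Pcdh10 on 2 and Pcdh17 on none; Pcdh11x is not analysed here.

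The clustered protocadherins gave 1 of 24 that rose and 0 that fell, against 4.92% and 5.70% of all genes. Pcdha1 is the symbol under which the platform table places 6 probes, without saying which alpha exon each reads. The brightest was at 10.14 and 10.34 in Salv CKO and at 8.10 and 8.40 in Control. Both Salv CKO pools lay well above both Control pools, with a difference of 1.99 ± 0.15 (limma adjusted p = 0.00762; 1.84 to 2.14 with 1 array left out). Of the other 5 probes none was called. The next brightest read 6.83 and 6.57 in Salv CKO and 6.39 and 7.06 in Control (-0.03 ± 0.31), and the other two above background on all arrays gave 0.93 ± 0.68 and -0.89 ± 0.46. The last 2 were at background on every array and have no measured difference. The rise was thus called on 1 of 4 measured probes, whose signs disagreed; as the mean of all 6 probes, the dim ones included, the gene was not called.

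Of 8 neural tube markers 4 rose (Hes5, Neurog2, Sox2 and Zic1), 1 fell (Nes), and Pax6, Sox1 and Sox3 were not called. Their summed intensity was 10261 and 9529 in Salv CKO against 3222 and 3405 in Control, with none at background on all arrays. Their part in the value of the Pcdha1 probe was not tested. Other members known from brain or nervous system went both ways. Cdh20 fell (-2.21 ± 0.32), whereas Cdh4, Cdh10 and Pcdh19 had positive differences without a call. The part of neural cells in those values was not tested either.

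Of 21 Pcdhb genes none was called (2 at an unadjusted limma p under 0.05, against 26.7% of all genes). Of the 21, 11 were above background on all 4 arrays and 5 on none. Pcdhb18 was at 5.44 and 6.05 in Salv CKO and at 4.18 and 4.56 in Control (1.37 ± 0.43, limma adjusted p = 0.120). Pcdhb9 was not above background in Salv CKO (3.97 and 3.22) and was at 4.68 and 4.69 in Control, so it was at least 1.61-fold lower in Salv CKO, with no call (limma adjusted p = 0.273). The other 10 Pcdhb genes above background on all arrays lay between -0.49 and 0.78. Of the gamma genes Pcdhga2 gave -0.16 ± 0.17 and Pcdhgc5 -0.59 ± 0.44. Beta and gamma genes are close copies and several have changed numbers between annotations, so single names among them are uncertain.

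Of the 73 members, 25 had several probes, and 12 had at least 2 probes above background on all 4 arrays. In 8 of the 12 these probes had a single sign with quantile normalisation, as in Cdh3, Cdh11, Cdh13 and Dsg2. In 4 (Cdh2, Celsr2, Celsr3 and Pcdha1) they had both. Of all 109 member probes 6 passed when each probe was tested among the 29922 on the array. They were those of Cdh5, Cdh20, Dchs1, Fat1 and Pcdha1 described above and the second probe of Dsg2.

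**Figure D5:**
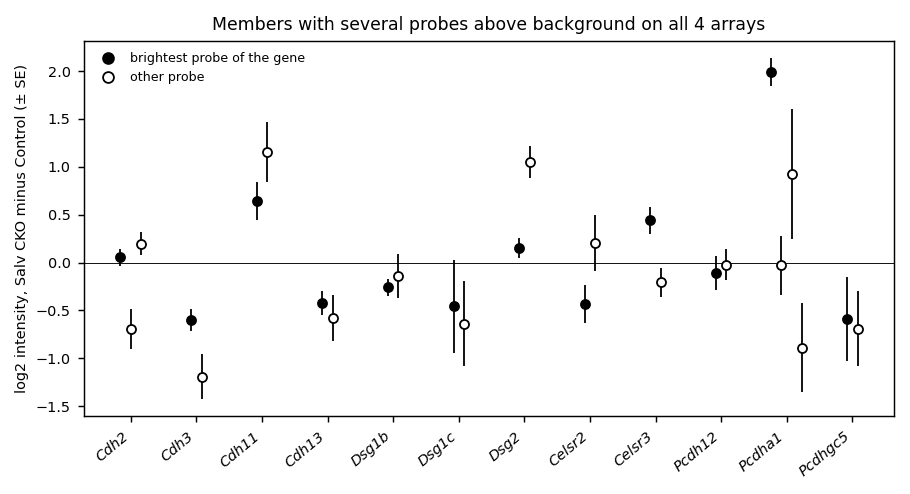
Differences in log2 intensity (Salv CKO minus Control, with the limma standard error) for the 12 members with at least 2 probes above background on all 4 arrays, with only such probes drawn; filled circles mark the brightest probe of a gene. The probes of Cdh3 lie on the same side of 0, whereas the drawn probes of Pcdha1 range from -0.89 to 1.99.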

How the data were processed

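Probe intensities deposited by the authors are on a linear scale and were background-subtracted, since 3.37 to 5.99% of values per array lay below 0; which scanner, scaling and software made them is not stated. Per the labels' protocols, amino-allyl RNA was coupled to Cy5. Quantile normalisation of the 4 columns (limma 3.58.1, R 4.3.3) was followed by a floor at an intensity of 1 and the log2 scale. The background limit was an intensity of 16, against a noise SD of 4.36 to 6.28 read from values below 0.

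The platform table (2013) named 21020 of 29922 probes. Each gene took its probe with the highest mean over the 4 arrays. Genes were tested two-sided with limma, using a variance trend on intensity (prior degrees of freedom 2.92) and Benjamini-Hochberg adjustment over 16675 genes. The number of arrays limits the precision. Groups followed the titles. The fit was tested on simulated data. Of member symbols 72 are official in RefSeq (GRCm38.p6) and 1 is a synonym.

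Members and lists were chosen with earlier results of these data known. Values are given for every called member, for uncalled ones of at least 1 (log2) with groups apart and a group above background on both arrays, and for preset members of each subfamily. Alternatives covered scaling, floor, offset, dim-gene filters, probe choice, variance trend, each array left out and a replicate block.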

Additional observations from a re-analysis of the deposited data

How the results depend on the processing

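The count of members that rose, 1 at the settings used, was 1 with median centring, 75th percentile scaling, the values as deposited and the replicate block. It was 2 (Pcdha1 and Cdh1) with an offset of 50 and when only genes above background on at least 2 or on all 4 arrays were tested. It was 0 with floors of 16 and 64, with the mean of all probes and without an intensity trend. The count that fell, 5, was 7 with median centring and as deposited (Cdh13 and Dsg1b added), 4 with the mean of all probes (without Cdh20), 5 with the other scalings, filters, the offset and the replicate block, 1 with a floor of 16 (Pcdhb9 in place of the 5), 1 with a floor of 64 (Cdh20) and 0 without the trend, where 20 members had an unadjusted p under 0.05. The causes were not tested. With 1 array left out both counts were 0 for each array, from 0 to 0, as for all genes, of which 3170 to 3428 then had an unadjusted p under 0.05. The median difference of the members, 0.00, was -0.07 with median centring and -0.34 as deposited, where genes above background had a median of -0.44, and -0.10 to 0.00 with 1 array left out. Over all genes 46.3% of calls were higher with quantile normalisation, 22.8% with median centring and 6.88% as deposited. Equal replicate numbers only name the pools; deviations of same-numbered pools correlated at 0.17, and the replicate block raised the calls over all genes to 1016 higher and 1195 lower, against 821 and 951, with the same 6 members called. Signal near background limits what can be said of the 26 members that were not above it on all arrays.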
